A study of Mus musculus with 28 samples.

Results

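Fc receptors bind the constant part of antibodies and pass that binding on to the cell. 8 of the 55450 genes in the table of TPM (transcript abundances scaled to transcript length and to the library total) were taken by symbol: the IgG receptors Fcgr1, Fcgr2b, Fcgr3 and Fcgr4, their signalling chain Fcer1g, the IgE receptor Fcer2a, the Fc receptor-like gene Fcrla and the neonatal receptor gene Fcgrt. The contacts of their promoter fragments in 4 lists of promoter capture Hi-C (PCHi-C) were added. The cells were C10, 1 line of mouse Pre-B cells with a C/EBPαER transgene, in which rat C/EBPα is fused to the estrogen receptor and enters the nucleus upon addition of β-estradiol. RNA-seq was done on 3 biological replicates of uninduced cells (0h) and on 3 per time point, 1h, 12h and 48h, after adding 100 nM β-estradiol, 10 nM IL-3 and CSF-1. Every library, 0h included, came from the same transgenic line, so time, β-estradiol and the cytokines could not be told apart. Nothing in the labels says that replicates were separate cultures, so the p-values measure the spread between these libraries. PCHi-C joined 2 replicates into 1 list per time point and had no replicate error.

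In mice the activating IgG receptors FcγRI, FcγRIII and FcγRIV, from Fcgr1, Fcgr3 and Fcgr4, reach the surface together with the FcRγ chain, from Fcer1g. This chain carries an ITAM, a pair of tyrosines that Src-family kinases phosphorylate and to which the kinase Syk binds. FcγRIIb, from Fcgr2b, carries an inhibitory motif (ITIM) instead, recruits the lipid phosphatase SHIP-1 and is the IgG receptor of B cells, while macrophages carry both kinds and use them to take up antibody-coated particles.

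5 of the 8 genes lie in a cluster on chromosome 1 (GRCm38): Fcrla at 170917576-170927583, Fcgr2b at 170958617-170976547, Fcgr4 at 171018920-171029761, Fcgr3 at 171051174-171064935 and Fcer1g at 171229572-171234365, with Fcgr4 on the plus strand and the rest on the minus strand. Fcgr1 is at chr3:96282909-96293969, Fcgrt at chr7:45092990-45103851 and Fcer2a at chr8:3681737-3694175, all on the minus strand. The promoters of the 6 genes whose RNA was tested are printed. Those of Fcgr1, Fcgr3, Fcgr4 and Fcrla place a like motif beside time courses that differ. Sequences are from RefSeq (GRCm38.p6), run from 250 bases before the start to 50 bases after it, and are written 5′ to 3′ on the strand of the gene. All 8 symbols were found in the promoter table. Capitals mark GAGGAA (the core bound by PU.1-like factors), TTGCNNAA (C/EBP-like) and CCCNNGGG (EBF-like), each searched on both strands.
Fcgr1, chr3:96293920-96294219, minus strand: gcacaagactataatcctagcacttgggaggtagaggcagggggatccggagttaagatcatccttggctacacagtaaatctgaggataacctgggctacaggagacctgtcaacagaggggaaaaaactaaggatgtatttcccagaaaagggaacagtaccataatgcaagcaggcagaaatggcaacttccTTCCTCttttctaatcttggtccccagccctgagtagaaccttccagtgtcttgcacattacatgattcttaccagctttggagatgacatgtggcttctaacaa
Fcgr3, chr1:171059354-171059653, minus strand: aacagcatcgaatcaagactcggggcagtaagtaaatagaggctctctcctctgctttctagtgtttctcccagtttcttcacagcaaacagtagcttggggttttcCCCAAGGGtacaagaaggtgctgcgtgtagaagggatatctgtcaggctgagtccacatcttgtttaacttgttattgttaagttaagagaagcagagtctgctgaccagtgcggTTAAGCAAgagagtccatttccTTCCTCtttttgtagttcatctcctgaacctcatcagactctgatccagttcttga
Fcgr4, chr1:171018676-171018975, plus strand: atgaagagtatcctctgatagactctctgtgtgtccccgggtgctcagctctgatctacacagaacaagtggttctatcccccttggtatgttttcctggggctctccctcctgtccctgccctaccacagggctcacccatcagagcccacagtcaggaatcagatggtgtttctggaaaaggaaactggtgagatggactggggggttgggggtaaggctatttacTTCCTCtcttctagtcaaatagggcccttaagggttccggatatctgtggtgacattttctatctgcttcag
Fcrla, chr1:170927534-170927833, minus strand: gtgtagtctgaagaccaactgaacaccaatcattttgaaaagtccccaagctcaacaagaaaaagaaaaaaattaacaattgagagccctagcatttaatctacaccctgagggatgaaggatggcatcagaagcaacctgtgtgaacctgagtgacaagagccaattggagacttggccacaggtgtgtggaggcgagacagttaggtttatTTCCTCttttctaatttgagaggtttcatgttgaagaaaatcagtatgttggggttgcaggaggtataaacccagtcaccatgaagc
Fcgr2b, chr1:170976022-170976321, minus strand: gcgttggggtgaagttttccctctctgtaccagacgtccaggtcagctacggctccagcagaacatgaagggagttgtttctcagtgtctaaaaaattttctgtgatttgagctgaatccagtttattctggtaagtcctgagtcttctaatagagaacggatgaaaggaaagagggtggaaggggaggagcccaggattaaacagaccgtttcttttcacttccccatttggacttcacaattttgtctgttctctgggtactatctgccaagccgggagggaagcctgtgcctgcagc
Fcer1g, chr1:171234300-171234599, minus strand: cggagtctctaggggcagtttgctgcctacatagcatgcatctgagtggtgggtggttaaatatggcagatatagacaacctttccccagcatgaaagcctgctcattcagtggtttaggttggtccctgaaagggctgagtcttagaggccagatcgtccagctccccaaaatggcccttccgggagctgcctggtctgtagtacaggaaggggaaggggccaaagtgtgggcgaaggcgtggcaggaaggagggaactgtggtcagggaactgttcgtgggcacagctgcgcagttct

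GAGGAA, read here as TTCCTC, was in 4 of the 8 promoters, and 28.3% of all 32851 promoters of this length held it. Its first base lay 55 bases before the start of Fcgr1, 37 before that of Fcrla, 22 before that of Fcgr4 and 6 before that of Fcgr3. In Fcgr1, Fcgr3 and Fcrla it was part of the longer AAGAGGAA, a run noticed after the sequences were seen and held by 3.56% of all promoters. TTGCNNAA was in the promoters of Fcgr3 and Fcgrt and in 10.8% of all promoters. CCCNNGGG was in the promoters of the same 2 genes and in 13.7% of all promoters. The Fcgr2b, Fcer1g and Fcer2a windows held none of these letters. In these windows Fcrla, whose RNA stayed near 0, held GAGGAA, and Fcgr2b, with the highest RNA of the 8, did not. Within 1 kb on either side of its start Fcgr2b held GAGGAA 2 times. A link between the motifs and the RNA was not tested.

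2 genes of a ribosomal RNA locus held 70.3% to 82.9% of the TPM in a library. Over the 16415 genes tested, log2 fold changes against 0h had a median of 0.59 at 1h, 0.34 at 12h and -0.18 at 48h. Scaling the libraries by median-of-ratios moved these medians to 0.02, 0.07 and 0.07, and its values are given where they change a result. TPM hold no record of sequencing depth, which was not used here, so the depth behind each value is not given. Summed TPM of 13 Pre-B marker genes fell from between 310 and 353 at 0h to between 30.7 and 42.9 at 48h. Those of 10 macrophage markers were between 9.09 and 12.7 at 0h and between 201 and 275 at 48h, where Csf1r, Cd14, Lyz2 and Itgam were all at 6.47 TPM or more and Adgre1 at 0.29 at most. Summed TPM of 8 neutrophil markers went from at most 0.18 at 0h to between 8.32 and 13.7 at 12h and between 1.41 and 3.43 at 48h, with Mpo and S100a9 at 0 in every library. Mast cell and basophil markers summed to at most 0.97 in any library, and markers of T and NK cells to at most 0.17. The 4 dendritic cell markers summed to at most 0.32. Of the 3 genes for liver and stroma, 2 were at 0 and the sum was between 4.62 and 7.42. The part of these shifts in the results below was not tested, and in bulk RNA a change in the number of cells of a type and a change in RNA per cell cannot be told apart.

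Fcgr2b, the inhibitory receptor, was the only one of the 8 with a clear level in uninduced Pre-B cells. Its TPM were 9.87, 6.96 and 5.60 at 0h. They were 34.1, 34.6 and 24.5 at 1h, 51.3, 48.2 and 60.03 at 12h, and 89.7, 103.8 and 98.3 at 48h. The libraries of the 4 time points did not overlap, so each later time lay above the one before. Against 0h, limma gave a log2 fold change of 2.06 ± 0.21 (SE) at 1h (adjusted p = 9.97e-05), 2.85 ± 0.21 at 12h (adjusted p = 2.89e-06) and 3.72 ± 0.21 at 48h (adjusted p = 1.20e-07). A gene was called when its adjusted p was under 0.05 and its log2 fold change beyond 1. Fcgr2b was the only member called at 1h, 1 of the 6 tested, where 16.7% of all genes were called higher and 1.08% lower. With the scaling its 1h change was 1.40 (limma adjusted p = 0.000128) and 4.08% of all genes were called higher and 2.83% lower. Between successive times it rose by 0.78 from 1h to 12h (adjusted p = 0.0225) and by 0.87 from 12h to 48h (adjusted p = 0.00800), both under the fold threshold in limma on TPM as deposited and past it after the scaling, at 1.11 and 1.62.

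**Figure D1:**
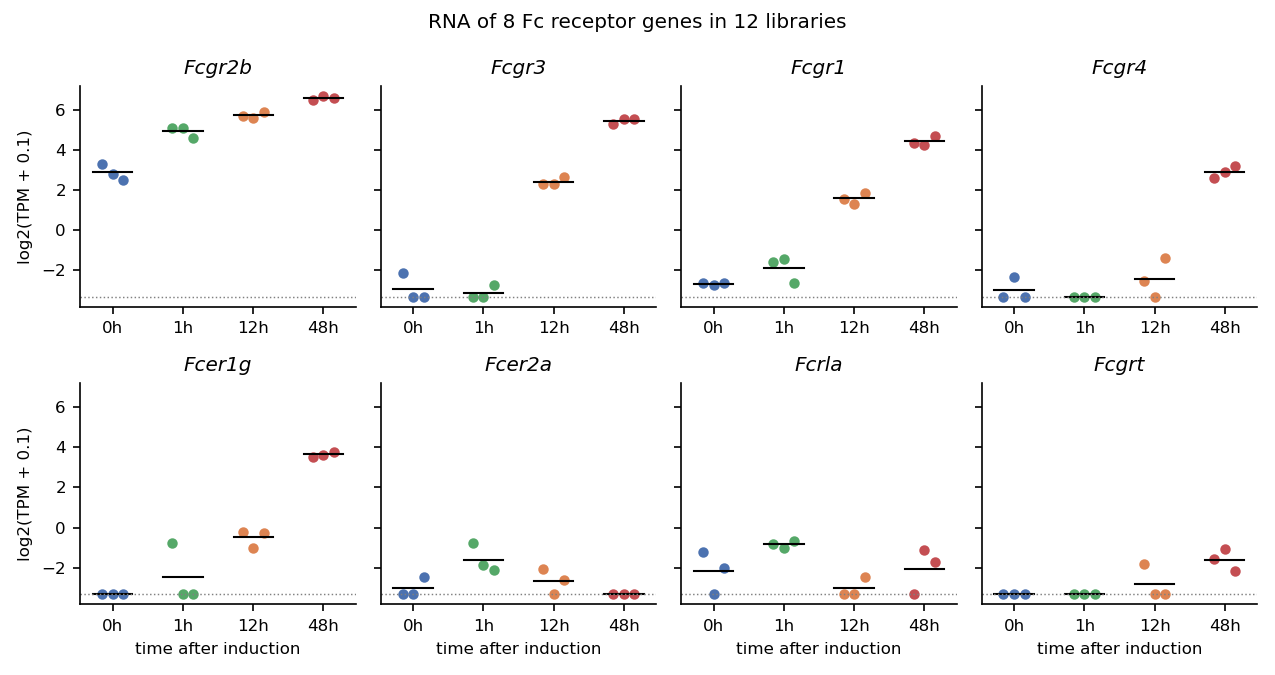
Each point is 1 library, plotted as log2(TPM + 0.1) by time after induction, with a bar at the mean of the 3 libraries and a dotted line where a gene is listed at 0. Fcgr2b climbs at every step, Fcgr3, Fcgr1 and Fcer1g leave the floor at 12h and Fcgr4 at 48h, and Fcer2a, Fcrla and Fcgrt stay at or below 0.52 TPM throughout.

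The activating receptors followed later. Fcgr3, the low-affinity activating receptor, was listed at 0 in 2 of 3 libraries at 0h and at 0.13 TPM in the other, and at 0, 0 and 0.05 at 1h. It then reached 4.86, 4.82 and 6.16 TPM at 12h and 39.1, 47.6 and 47.0 at 48h, with no overlap from 1h on. This was a log2 fold change of 5.34 ± 0.33 at 12h (limma adjusted p = 5.30e-07) and 8.40 ± 0.33 at 48h (7.11e-09) against 0h. Because 0.1 was added to each TPM, these values depend on that number, and with 1 or 0.01 added the 48h change was 5.45 or 10.8.

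Fcgr1, the high-affinity IgG receptor, was detected at a trace in every 0h library, at 0.06, 0.05 and 0.06 TPM. It was at 0.23, 0.27 and 0.06 at 1h, so that the third replicate at 1h lay at the 0h level. Without that library the 1h change would be called (log2 fold change 1.16, limma adjusted p = 0.00846), and with it the change was 0.78 ± 0.31 (adjusted p = 0.0863). At 12h the TPM were 2.89, 2.37 and 3.54, and at 48h 20.5, 18.9 and 26.1. The log2 fold change was 4.26 ± 0.31 at 12h (adjusted p = 2.32e-06) and 7.12 ± 0.31 at 48h (1.45e-08).

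Fcgr4, a receptor for IgG of the subclasses IgG2a and IgG2b, was the last to appear. It was listed at 0.10 TPM in 1 library at 0h and at 0 in the others and in all 3 libraries at 1h. At 12h it was at 0.07, 0 and 0.28, which overlapped 0h (log2 fold change 0.56 ± 0.48, limma adjusted p = 0.407). At 48h it was at 5.92, 7.43 and 9.05, above every earlier library. The log2 fold change at 48h was 5.89 ± 0.48 against 0h (limma adjusted p = 1.57e-06) and 5.32 ± 0.48 against 12h (1.22e-05). Fcgr4 passed the filter on low TPM through its 48h libraries alone, so these p-values are not read as support for a late step. The fold against 0h depended on what was added to TPM, from 3.02 with 1 to 8.37 with 0.01. Whether the step of Fcgr4 from 12h to 48h differed from that of Fcgr3 was not tested.

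Fcer1g, the chain that the activating receptors need, was at 0 in each of the 0h libraries, so no fold against 0h is given. It was at 0.49, 0 and 0 at 1h, at 0.75, 0.40 and 0.74 at 12h and at 11.5, 12.3 and 13.7 at 48h. Fcer1g was called higher at 12h (limma adjusted p = 0.00330) and at 48h (adjusted p = 1.74e-06) against 0h, and from 12h to 48h it rose by 4.15 ± 0.57 (0.000230). The 12h call against 0h was lost with 1 added to TPM (0.70). From 1h to 12h the change was 1.97 ± 0.57 (adjusted p = 0.0292). This call was lost without replicate 2 or 3 at 1h or replicate 1 or 3 at 12h, with limma adjusted p between 0.0827 and 0.118. It was also lost with only the 6 libraries compared (adjusted p = 0.136), with no filter on low TPM (0.0550) and, under the fold threshold, with 1 added to TPM (0.51). At 12h, Fcer1g was thus below 1 TPM while Fcgr3 was near 5, and the ratio of Fcgr3 to Fcer1g TPM was between 6.48 and 12.1 in the 12h libraries and between 3.41 and 3.88 in the 48h libraries.

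Over all 8 genes, 4 of the 6 tested were called higher at 12h and none lower, where 17.7% of all genes were higher and 5.75% lower. At 48h, 5 of the 6 were called higher and none lower, against 13.5% and 23.1% of all genes (19.6% and 17.6% after the scaling). From 1h to 12h, 3 were called higher and Fcrla lower, against 5.49% and 10.6% of all genes. After the scaling 4 were higher and none lower in this step, against 7.74% and 5.62%. From 12h to 48h, 4 were higher and none lower, against 3.55% and 23.8% (7.56% and 7.72% after the scaling). The direction of Fcgr1, Fcgr2b, Fcgr3, Fcgr4 and Fcer1g at 48h was the same under both scalings tried. The genes were taken by symbol with earlier results of these data known, so these counts describe the family, and Fcgr4 passed the filter on low TPM through its 48h libraries alone.

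The remaining members, 2 of them linked to B cells, stayed low. Fcer2a, which encodes CD23, a low-affinity IgE receptor of mature B cells, was at 0, 0 and 0.08 TPM at 0h. It was at 0.48, 0.17 and 0.13 at 1h, at 0.14, 0 and 0.06 at 12h and at 0 in all 3 libraries at 48h. Fcrla, which encodes a protein kept inside B cells, was at 0.33, 0 and 0.15 at 0h, at 0.47, 0.39 and 0.52 at 1h, at 0, 0 and 0.08 at 12h and at 0, 0.36 and 0.20 at 48h. On TPM as deposited all 3 libraries of each at 1h lay above every 0h library. After the scaling this held for Fcer2a but not for Fcrla, of which 2 libraries at 1h (0.30 and 0.26) lay below the highest at 0h (0.32). For Fcrla the 1h change was 1.34 ± 0.64 (limma adjusted p = 0.143) and the change from 1h to 12h was -2.20 ± 0.64 (adjusted p = 0.0292). That call was lost after the scaling (adjusted p = 0.0850) and without any of the 3 libraries at 1h or replicate 1 or 2 at 12h (0.0648 to 0.0900).

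Fcgrt, the neonatal receptor that protects IgG from breakdown inside cells, was at 0 in all 6 libraries of 0h and 1h. It was at 0.18, 0 and 0 at 12h and at 0.24, 0.37 and 0.12 at 48h. All 3 libraries at 48h thus held a trace of it, and their level was below that of Fcgr4, the next member above it, in every library. Fcer2a and Fcgrt had a mean TPM below 0.1 and were left out of the main test. With no filter, limma called Fcer2a at 1h (log2 fold change 1.44, adjusted p = 0.0436) and Fcgrt at 48h (adjusted p = 0.00705).

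TPM are scaled by transcript length, so levels can be set side by side. At 12h and at 48h the order was Fcgr2b, Fcgr3, Fcgr1, Fcer1g and Fcgr4, and no neighbours among these 5 overlapped over the 3 libraries. From Fcgr4 down at 12h and from Fcgrt down at 48h, neighbours overlapped. Before 12h Fcgr2b stood above the rest, and all other neighbours overlapped.

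The share of the activating receptors in IgG receptor RNA therefore moved. Fcgr1, Fcgr3 and Fcgr4 together made up between 1.06% and 2.11% of the IgG receptor TPM at 0h, between 0.446% and 0.774% at 1h, between 13.0% and 14.3% at 12h and between 41.6% and 45.5% at 48h. Fcgr2b exceeded Fcgr3 between 9.75 and 10.6 times at 12h, and between 2.09 and 2.29 times at 48h. It exceeded Fcgr1 between 17.0 and 20.3 times at 12h and between 3.76 and 5.49 times at 48h. Fcgr2b was still the most abundant IgG receptor RNA in every library at 48h. Ratios within a library do not depend on the scaling between libraries.

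**Figure D2:**
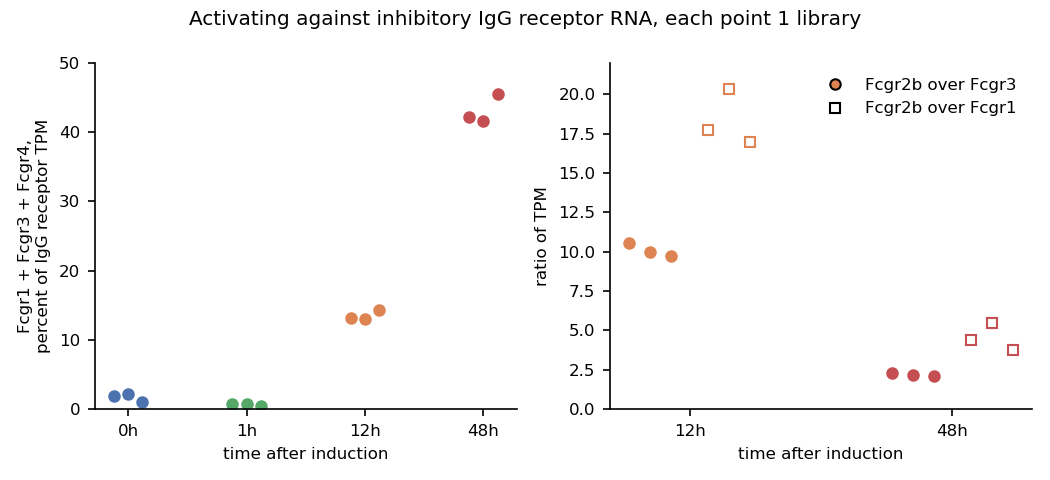
The left axis gives the percent of IgG receptor TPM from Fcgr1, Fcgr3 and Fcgr4 at each time, and the right axis the ratio of Fcgr2b TPM to Fcgr3 (filled circles) and to Fcgr1 (open squares) at 12h and 48h, each point being 1 library. The share climbs from at most 2.11% at 0h to at least 41.6% at 48h, and both ratios fall between 12h and 48h with no overlap.

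Reads could be assigned to the wrong receptor where their transcripts are alike. Fcgr2b and Fcgr3 were the closest, with a longest match of 512 bases at 96.3% identity. Of all 100-base windows, the read length used, 2.54% of those of Fcgr3 were also in Fcgr2b. For Fcgr2b 4.21% of windows were found in another gene, and for the other 6 members none was. Fcgr2b also overlaps Gm38204 on the opposite strand, which was at 0.63 TPM at most, and the library kit did not mark strand.

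Among genes averaging 1 TPM or more, the time course most like that of Fcgr2b was that of Vmp1, an autophagy gene, with a Pearson r of 0.994 of log2(TPM + 0.1) over the 12 libraries. Nrg1 and the pseudogene Gm8995 came next, at 0.991 and 0.990. Fcgr3 was most like Thbs1 (thrombospondin, r = 0.995), C130026I21Rik (0.995) and Sp110 (0.993). For Fcgr1 the nearest were Mmp13, a collagenase (0.993), Thbs1 (0.992) and Itm2b (0.991). Fcgr4 was nearest to Batf2 (0.992), Ifi206 (0.989) and Trim30c (0.987), and Fcer1g to Ifi213 (0.981), Parp14 (0.977) and Oasl2 (0.977). Batf2, the Ifi genes, Parp14, Oasl2 and the Trim30 family are known as interferon-inducible. This is not read as a trait particular to Fcgr4 and Fcer1g. For Fcrla the nearest reached 0.894 (Efr3a), 0.877 (Timeless) and 0.855 (Zfand5). The 12 libraries are 4 time points of 3, so these correlations describe time courses only.

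The genes with which Fc receptors work were followed as fixed lists. Of 5 ITAM and related adaptors, 2 were called higher and 2 lower at 48h against 0h, with a median log2 fold change of -0.61 beside -0.18 over all genes, of which 13.5% were called higher and 23.1% lower. Tyrobp, the DAP12 adaptor of myeloid receptors, was at most 0.31 TPM at 0h and between 49.3 and 93.3 at 48h (8.59 ± 0.49, limma adjusted p = 1.03e-07). Hcst, the DAP10 adaptor, carries a motif that binds phosphoinositide 3-kinase and no ITAM. It was at most 0.45 TPM at 0h and between 0.33 and 1.42 at 48h (1.68 ± 0.62, limma adjusted p = 0.0473), and the 4 other genes held 1 higher and 2 lower, with a median of -1.06. Cd79a and Cd79b, the ITAM chains of the B cell receptor, fell by 2.63 and 1.51 on the log2 scale. Cd79b was already between 4.23 and 6.26 TPM at 1h, below its 32.0 to 36.8 at 0h, whereas Cd79a was between 51.0 and 53.4 at 1h. Cd247, also an ITAM chain, did not pass the test (-0.61, adjusted p = 0.577).

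Of 30 kinases and adaptors downstream of activating receptors, 24 were tested, and at 48h 8 were called higher and 2 lower, with a median of 0.28, where 13.5% of all genes were called higher and 23.1% lower. After the scaling 9 were higher and 1 lower, against 19.6% and 17.6% of all genes. Lcp2, the adaptor SLP-76, was listed at 0 in every 0h library and reached 4.73 to 5.28 TPM at 48h (limma adjusted p = 1.65e-08). Gab2, a docking protein, rose by 2.98, Prkcd, a protein kinase C, by 2.44, and Pik3r5, a regulator of phosphoinositide 3-kinase gamma, by 2.42 on the log2 scale. On TPM as deposited Prkcd was at 24.5 to 35.8 at 12h and at 25.4 at most at 48h, so these ranges overlapped. Its change from 12h to 48h did not pass (-0.29, limma adjusted p = 0.291). The scaling divided the 12h libraries by 1.07 to 1.35 and the 48h libraries by 0.63 to 0.75, which raised 48h relative to 12h. With it the 48h change of Prkcd against 0h was 2.85, and no peak at 12h is read. The other genes called higher were Card9, Lat2, Pik3r1 and Lyn, a Src-family kinase, and those called lower were Plcg1 and Fyn. After the scaling Fyn lost its call (-0.71) and Cdc42 was called higher (1.06, limma adjusted p = 0.000229). Arpc1b (0.28, adjusted p = 0.374) and Rac2 (-0.95, adjusted p = 0.000935) were the most abundant genes of this list that were not called.

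In the inhibitory arm, 1 of 9 genes was called at 48h and none was called higher, with a median of -0.14, where 13.5% of all genes were called higher and 23.1% lower (19.6% and 17.6% after the scaling). Inpp5d, which encodes SHIP-1, the phosphatase that FcγRIIb recruits, was between 27.8 and 30.5 TPM at 0h and between 28.1 and 36.6 at 1h, between 6.82 and 15.5 at 12h and between 4.45 and 9.50 at 48h. It fell by 1.98 on the log2 scale from 0h to 48h (SE 0.32, limma adjusted p = 0.000395). The fall was already called at 12h (-1.59 against 0h, limma adjusted p = 0.00347), while neither 1h against 0h (0.20, adjusted p = 0.682) nor 48h against 12h (-0.39, adjusted p = 0.386) passed. Ptpn6, the phosphatase SHP-1 (-0.03, adjusted p = 0.924), and Csk (-0.86, adjusted p = 0.0128) were not called.

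Other receptors that signal through the FcRγ chain were near 0 before 48h. Of 7, the C-type lectins Clec4d, Clec4e and Clec4n and the paired receptor gene Pira2 were tested, while Oscar, Gp6 and Lilra5 averaged under 0.1 TPM. Clec4d was listed at 0 in every 0h library, reached 0.21 to 0.46 TPM at 12h and 3.81 to 5.47 at 48h (limma adjusted p = 6.28e-07). Clec4e was at most 0.25 TPM at 12h and between 0.89 and 0.91 at 48h. Clec4n was at most 0.06 before 48h and between 0.16 and 1.08 at 48h, and Pira2 at most 0.08 before and between 0.27 and 0.76 at 48h. These 3 genes passed the filter on low TPM through their 48h libraries alone, so no count or median is read from the list. Among 11 other Fc receptor genes and partners 4 were tested. B2m, the light chain of the neonatal receptor and of MHC class I, rose from between 70.2 and 94.1 TPM to between 539.5 and 981.3 (3.25 ± 0.24, adjusted p = 7.90e-07). Trim21, an antibody receptor of the cytosol, rose by 1.20. Fcrlb, which shares a promoter fragment with Fcrla, was also called higher and Fcrl1 lower.

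**Figure D3:**
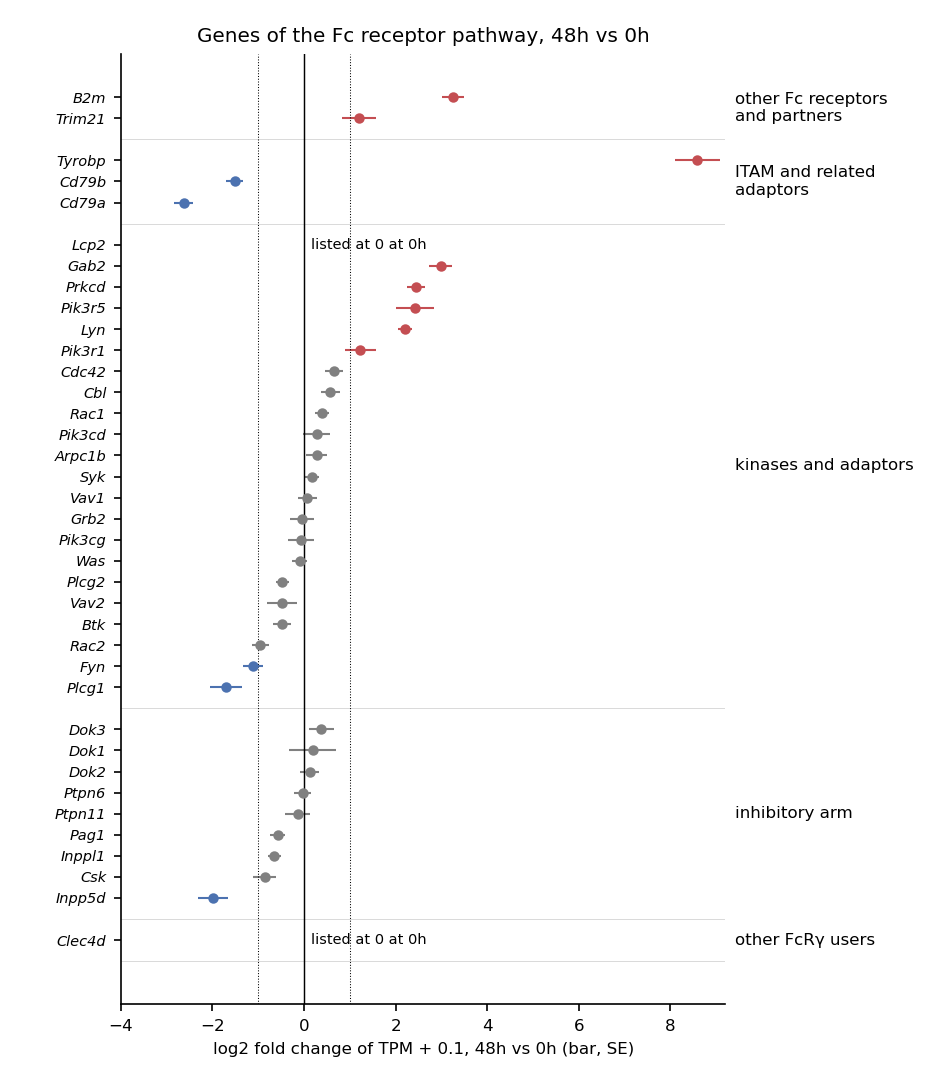
Log2 fold change of TPM + 0.1 at 48h against 0h, with a bar for the SE, for genes of the 5 lists that averaged 1 TPM or more. Red marks genes called higher, blue genes called lower, grey genes that were not called and dotted lines the fold threshold. Tyrobp lies at 8.59, Inpp5d at -1.98 and Cd79a at -2.63.

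PCHi-C captures ligation products of HindIII fragments that hold promoters (baits), and the deposited lists give the fragments each bait contacts. 7 of the 8 members had a bait among the 18175 that appear in these lists. That of Fcrla also holds starts of Fcrlb and Gm2962, that of Fcgr2b one of Gm38204, and that of Fcgr4 one of Gm26110, so their contacts belong to the fragment and not to 1 gene. Fcgr3 had none. The fragment with its outermost annotated start was in no list, and the one that holds the promoter printed above (chr1:171058330-171061885, GRCm38) was contacted by the Fcer1g bait at 0h and the Fcrla bait at 12h. The 0h list carries a CHiCAGO score of at least 5 for each contact, and the later lists carry whole numbers whose unit is not named, so values are compared neither between 0h and later times nor tested.

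For none of Fcgr1, Fcgr2b, Fcgr4 and Fcer1g was the list of contacts longest at 48h, when their RNA was highest. In the order 0h, 1h, 12h and 48h, the Fcgr1 bait had 19, 16, 11 and 13 contacts, the Fcgr2b bait 9, 13, 12 and 7 and the Fcgr4 bait 18, 17, 17 and 16. For Fcer1g, whose RNA was listed at 0 in the 0h libraries, 24 contacts were listed at that time, followed by 15, 10 and 19. Each of these 4 baits had more contacts at every time than the median bait, which had 4. No member had at least 2 times and 5 contacts more at 48h than at 0h, where 9.06% of all baits did.

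The Fcrla bait had 31, 36, 23 and 14 contacts in this order, the only member with at least 2 times and 5 contacts fewer at 48h than at 0h (7.9% of all baits). Among contacts with a value at or above the median of their list it had 22, 20, 19 and 13, which was not past that rule. Fcer2a had 2, 5, 15 and 6 contacts, most at 12h. Fcgrt had 3, 17, 8 and 3, most at 1h. Both had at least 2 times and 5 contacts more at 12h than at 0h (6.74% of all baits), and Fcer1g had as many fewer (6.65%). At 1h only Fcgrt had as many more (4.84%). Under the same cut, with the same limit, Fcer2a had 2, 1, 4 and 5, and Fcgrt 1, 9, 4 and 2.

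**Figure D4:**
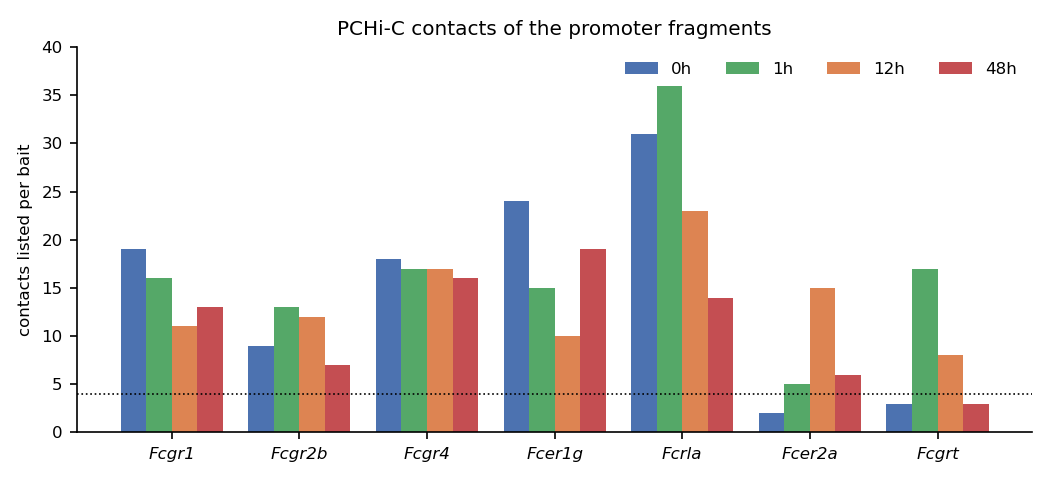
Number of contacts listed for the promoter fragment of each member at 0h, 1h, 12h and 48h, from 1 merged list per time and with no replicate error. The dotted line is the median of all baits, 4. The Fcrla bars fall from 31 at 0h to 14 at 48h, and the Fcer2a and Fcgrt bars are highest at 12h and 1h.

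Together the 7 baits had 104 distinct contacts at 0h, a contact between 2 of the baits counted once, and 50 of these were listed again at 48h. Of the 191 seen at any time, 33 were in all 4 lists. Summed over baits, so that a contact between 2 of them counts at each, 87 of 106 contacts of 0h were listed at 48h when a fragment within 10 kb was taken as the same. The same shares over all baits were not computed, and the 0h list carries values of another kind than the later lists. These counts are therefore not read as a gain or loss of contacts particular to these genes.

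Within the cluster on chromosome 1, the Fcrla bait contacted that of Fcgr2b, 53.7 kb away, and that of Fcgr4, 104.9 kb away, in all 4 lists. Fcgr2b and Fcgr4, 51.2 kb apart, were not listed as a contact at any time, nor were Fcgr2b and Fcer1g, 259.9 kb apart. The pair of Fcgr4 and Fcer1g, 208.6 kb apart, was listed at 48h only, with a value of 7, when RNA of both was first above 1 TPM. Fcer1g and Fcrla, 313.6 kb apart, were listed at 1h (9) and at 48h (6). Such values lie below the medians of the 1h and 48h lists, 17 and 15.

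The Fcer1g bait contacted the fragments of Nr1i3 and Tomm40l, of Cfap126, of Ppox and of Usp21 in all 4 lists. At 48h and not at 0h it was listed with the Apoa2 fragment, 6.5 kb away (122), with those of Fcgr4, Dusp12 and, on chromosome 16, Upk1b, and with that of Fcrla, which was also listed at 1h. The Fcgr4 bait contacted those of Atf6, Nr1i3 and Ppox in all 4 lists, and from 12h on those of Usp21 and Ufc1. The Fcgr2b bait contacted that of Atf6 at 1h, 12h and 48h and not at 0h. The Fcgr1 bait, on chromosome 3, contacted fragments with Gm24136 and with Rnu1b6 and its neighbours in all 4 lists and that of Lix1l, Polr3gl and Ankrd34a, 302.3 kb away, at 48h only (9). The Fcer2a bait contacted that of Cd209c, a C-type lectin gene, from 1h on, and the Fcgrt bait that of Rcn3 in all 4 lists.

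**Figure D5:**
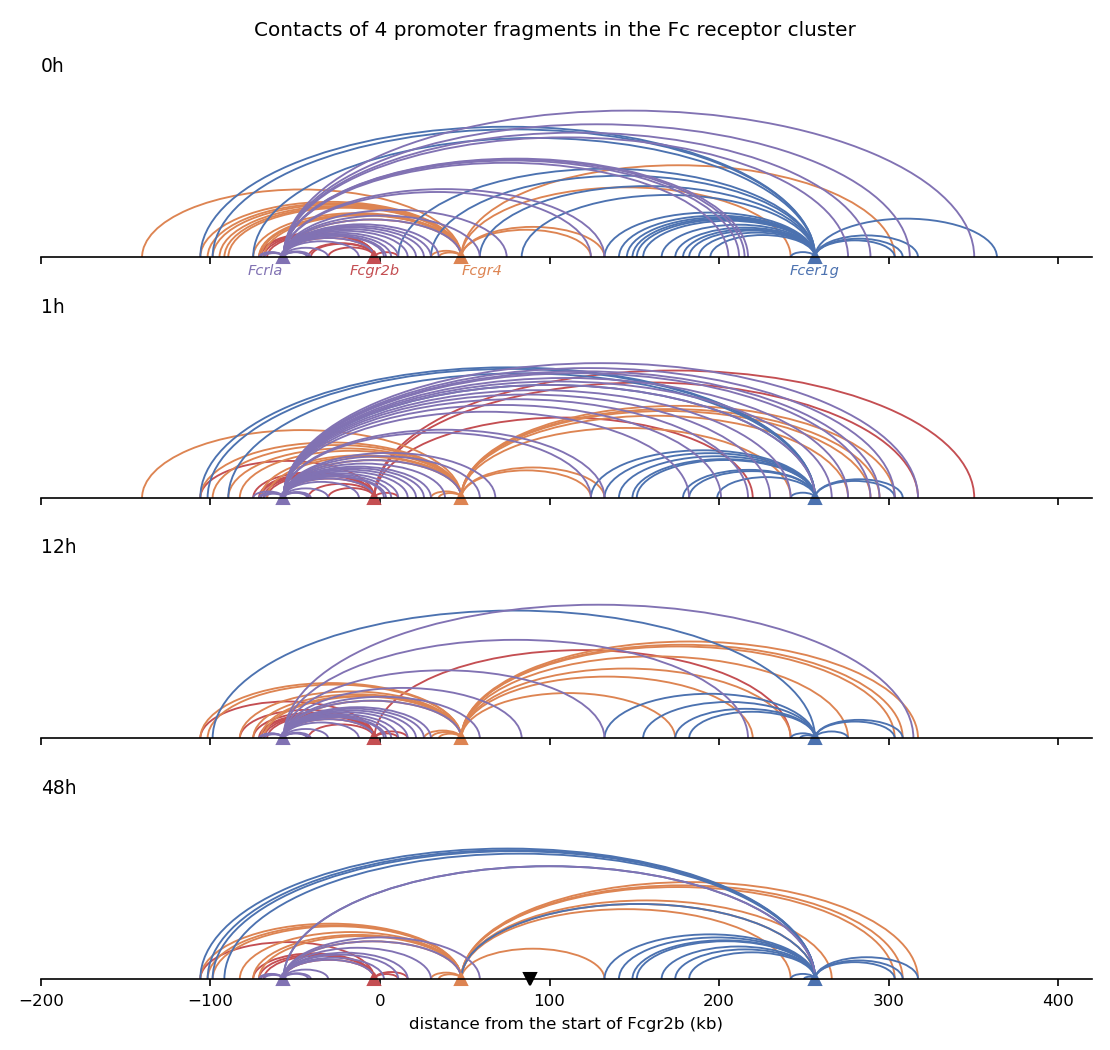
Arcs join the promoter fragments of Fcrla, Fcgr2b, Fcgr4 and Fcer1g (triangles) to the fragments they contact at each time, along the distance in kb from the start of Fcgr2b. The black mark is the outermost start of Fcgr3, which has no bait in the lists. The arc that joins the Fcrla and Fcer1g fragments themselves is present at 1h and 48h, while other long arcs are present at every time. The arcs of Fcrla thin from 31 at 0h to 14 at 48h.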

How the data were processed

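RNA-seq of 12 libraries of C10 cells and 4 PCHi-C lists were analysed, and the Hi-C data were not used here. The authors trimmed reads (Trim Galore 0.6.2), aligned them to mm10 with HISAT2 2.1.0, used RSEM, and deposited TPM. For PCHi-C they used HiCUP and CHiCAGO, merged replicates and deposited a score per contact at 0h and whole numbers of another, unnamed unit at later times, per the labels and the values.

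The 16415 genes that averaged 0.1 TPM or more entered limma 3.58.1 (R 4.3.3) as log2(TPM + 0.1), all 12 libraries in 1 model with a mean-variance trend and Benjamini-Hochberg adjustment. On simulated data (48h vs 0h, 16415 genes) it recovered 92.5% of 200 changed genes and called 12 unchanged ones. The changed genes were drawn from those at about 1 TPM or more at 0h. The rate therefore does not cover genes that start near 0, such as Fcgr1, Fcgr3, Fcgr4 and Fcer1g. Baits were matched to transcription start sites of GENCODE M21, promoters to RefSeq, and shared 100-base windows were found with BLAST 2.17.0. A list named its 4 called genes with the largest 48h change and the 2 most abundant not called, averaging 1 TPM or more, and each contact the genes at its other end. The members and lists were chosen with earlier results of these data known. Alternatives varied the pseudocount, filter, scaling, trend, block, thresholds and libraries. The values of a few genes are not reported here.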

Additional observations from a re-analysis of the deposited data

How the results depend on the processing

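Of 230 alternative counts of Fc receptor genes called, 218 were within 1.5 times of the reported count. Genes called higher at 1h were 2 with no filter on low TPM. Genes called lower from 1h to 12h were 0 with 1 or 0.01 added to TPM, at a mean TPM of at least 1, after median-of-ratios scaling and with the total rescaled to leave out the 20 most abundant genes. Leaving out 1 library gave between 1 and 2 genes higher at 1h and between 0 and 1 lower from 1h to 12h. No fold change of the 6 tested genes that was called in either setting changed direction, 603 of 625 kept their side of the threshold, 17 lost the call and 5 gained it. Replicate numbers were not taken to pair the libraries, since 7 of 18 pairs of same-numbered libraries, not all, had a correlation of deviations over 0.1. As a hint from the data, 11 of 18 correlated best with their own number, among them all 6 pairs of replicate 3, of which 5 were over 0.1. With the replicate block, 1, 4 and 5 genes were called higher at 1h, 12h and 48h, as without it. Contacts summed over baits, with a value at or above the median of their list, numbered 63 of 106 at 0h, 54 of 119 at 1h, 51 of 96 at 12h and 40 of 78 at 48h. They were fewer by construction, and the cut was not alike between 0h and later times. Within 10 kb, 87 of the 0h contacts were listed at 48h instead of 52, and neither share was computed over all baits. In windows of 1 kb on either side of the start, GAGGAA was found in 8 of the 8 genes and in 86.9% of all promoters. Depth was not used here, so the number of reads behind values below 1 TPM is not given.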
